A study of Sus scrofa with 8 samples.

Results

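The enzymes that bring pyruvate into the citrate cycle and turn its later steps were followed in pig skeletal muscle under 2 diets. The genes were CS, IDH2, IDH3G, FH, MDH1, MDH2, PDHA1, PDHB and PDK2, and a spot was taken when the platform annotation gave one of these as its single symbol. By that rule 7 of the 9 genes were measured, on 16 of the 9984 spots. FH and PDHB had no such spot and were not analysed here. PDK2 had 4 spots and each of the other genes had 2 neighbouring ones, which share a target and are not replicates of a diet. All 7 symbols occur in the pig gene tables, while the annotation's accessions for these spots are those of human transcripts; how well pig transcripts match them was not tested.

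Total RNA from muscle of pigs fed a high energy diet was hybridised in competition with RNA from pigs fed a low energy diet. The 8 arrays formed 4 couples of 1 low energy and 1 high energy sample, numbered 49 and 40, 61 and 41, 142 and 40, and be and ae in the labels. Each couple was run once with the high energy sample in the dye marked 5 and once in the dye marked 3. High energy sample 40 was therefore in couples 1 and 3. Which muscle was taken, and the breed, age and feeding period of the pigs, are not known from the labels. The labels speak of animal samples without saying whether RNA was pooled. The p-values therefore set a mean ratio against the spread among these couples, and part of that spread may be technical. Values are log2 ratios, read as high over low energy; the series' design treats the low energy samples as the reference, which makes that reading likely, but it is not stated. For this reason the means are followed by a turned value, obtained after reversing the sign of the arrays with the high energy sample in dye 3. The turned value is the ratio of high over low energy if the deposited values are dye 5 over dye 3. If they are dye 3 over dye 5, it is that ratio with the opposite sign. If they are high over low energy, it is the dye effect.

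Pyruvate made by glycolysis enters mitochondria, where the pyruvate dehydrogenase complex converts it to acetyl-CoA. Kinases of the PDK family phosphorylate the complex and switch it off, which spares glucose when fat is the fuel. Citrate synthase joins acetyl-CoA to oxaloacetate, isocitrate dehydrogenases oxidise the product, and malate dehydrogenase closes the cycle; in muscle, citrate synthase activity is widely used as a measure of mitochondrial content.

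None of the 7 genes passed the test, in which limma compared the mean ratio with 0 and p-values were adjusted by the Benjamini-Hochberg method over 5025 features. Of all features 0 passed an adjusted p of 0.05, which is 0% (smallest adjusted p = 0.996), and 190, or 3.78%, had an unadjusted p under 0.05. Among the 7 genes 0 were under that unadjusted p. The arrays held values for 77.6% to 94.4% of spots, and the median standard error of a feature was 0.13 log2. The 3 genes with the highest ratios were PDK2, CS and IDH3G, each above 0 in all 4 couples, as were 7.47% of features measured in 4 couples. In turned values the order was another one, led by PDHA1 (0.11), IDH2 (0.046) and PDK2 (0.029), with CS (-0.019) and IDH3G (-0.032) below 0. The 95% intervals of PDK2, CS and IDH3G all included 0.

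**Figure D1:**
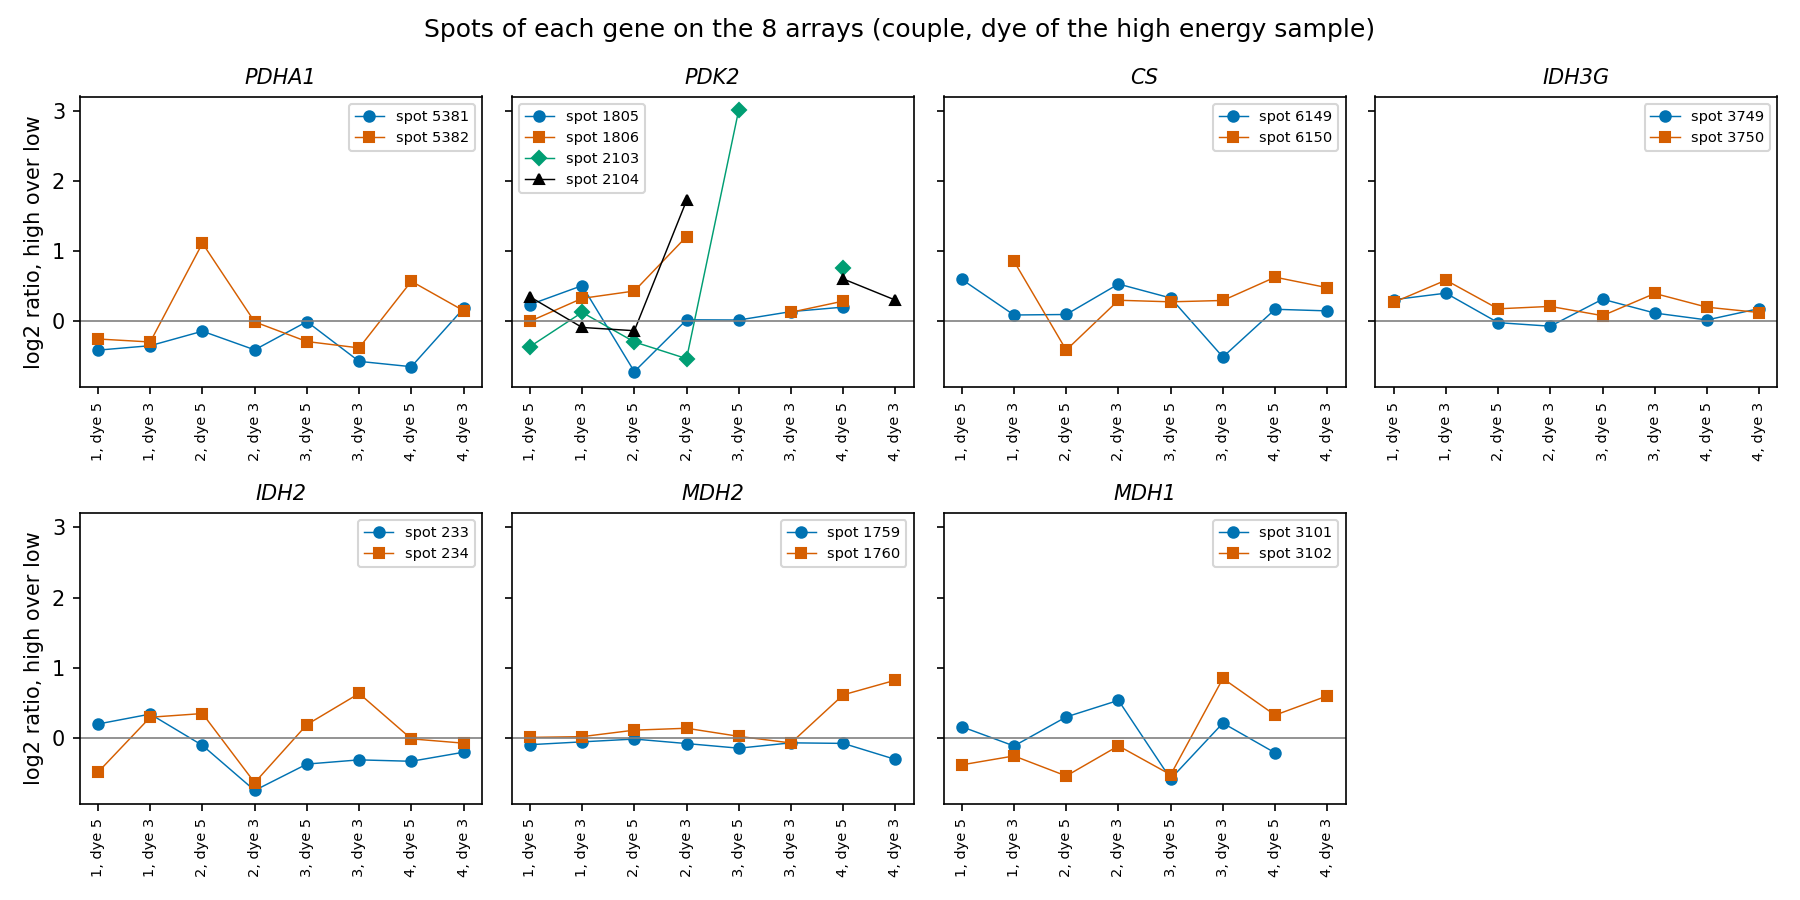
Log2 ratio (high over low energy, y axis) of every spot of the 7 genes on the 8 arrays (x axis, couple and dye of the high energy sample); each line joins the values of 1 spot. The 2 spots of IDH3G stayed within 0.28 of each other, while the spots of PDK2 spanned -0.72 to 3.02.

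For pyruvate entry, the gene of the target enzyme and that of its kinase had means on opposite sides of 0, and both above 0 when turned. PDHA1 encodes the alpha subunit of pyruvate dehydrogenase, which carries the sites that the kinases phosphorylate. With the high energy sample in dye 5 and then dye 3, its log2 ratios were -0.33 and -0.32 in couple 1, 0.49 and -0.21 in couple 2, -0.15 and -0.48 in couple 3, and -0.038 and 0.17 in couple 4. Both couples that hold sample 40 were low, and the values of couple 2 had opposite signs. The mean was -0.066 ± 0.12 (SE, n = 4 couples; turned 0.11, adjusted p = 0.996 in limma), below 0 on 6 of 8 arrays. The first of its spots was below 0 on 7 arrays, on 1 of them only through centring of a deposited 0. A deposited ratio can mostly be written as a quotient of 2 whole numbers, and the larger one in lowest terms, here the recovered signal, is a lower bound on brightness, so a small number does not by itself show a dim spot. For this spot its median was 115, against array medians of 187 to 607. The spot had a mean over couples of -0.29 ± 0.092 (adjusted p = 0.999 in limma with every spot tested), and the second had 0.15 ± 0.18. The sign of PDHA1 thus depended on the spot, and the mean was 0.038 without the array of couple 2 with dye 3.

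PDK2, a pyruvate dehydrogenase kinase abundant in many tissues, had the highest mean of the 7 genes, 0.37 ± 0.19 (SE, n = 4 couples; turned 0.029, adjusted p = 0.996 in limma). This is 1.29-fold, with a 95% interval from 0.939-fold to 1.79-fold. Its log2 ratios in dye 5 and dye 3 were 0.057 and 0.22 in couple 1, -0.18 and 0.61 in couple 2, 1.52 and 0.13 in couple 3, and 0.47 and 0.30 in couple 4. They were above 0 on 7 of 8 arrays, and the array of couple 3 with dye 5 lay far above the others.

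The highest PDK2 values came from spots with small recovered numbers. On the array of couple 3 with dye 5 only 2 of the 4 spots had a value, 0.019 and 3.02. For the spot at 3.02 the recovered numbers were 57 and 7, and for the other they were 63 and 62. On the array of couple 2 with dye 3 the 4 spots gave 0.022, 1.21, -0.53 and 1.73, the highest with recovered numbers of 10 and 3. When values with a recovered signal under 100 were left out, a choice made after the data were seen, PDK2 had 0.076 ± 0.14 in 3 couples. Without couple 3 it had 0.25.

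**Figure D2:**
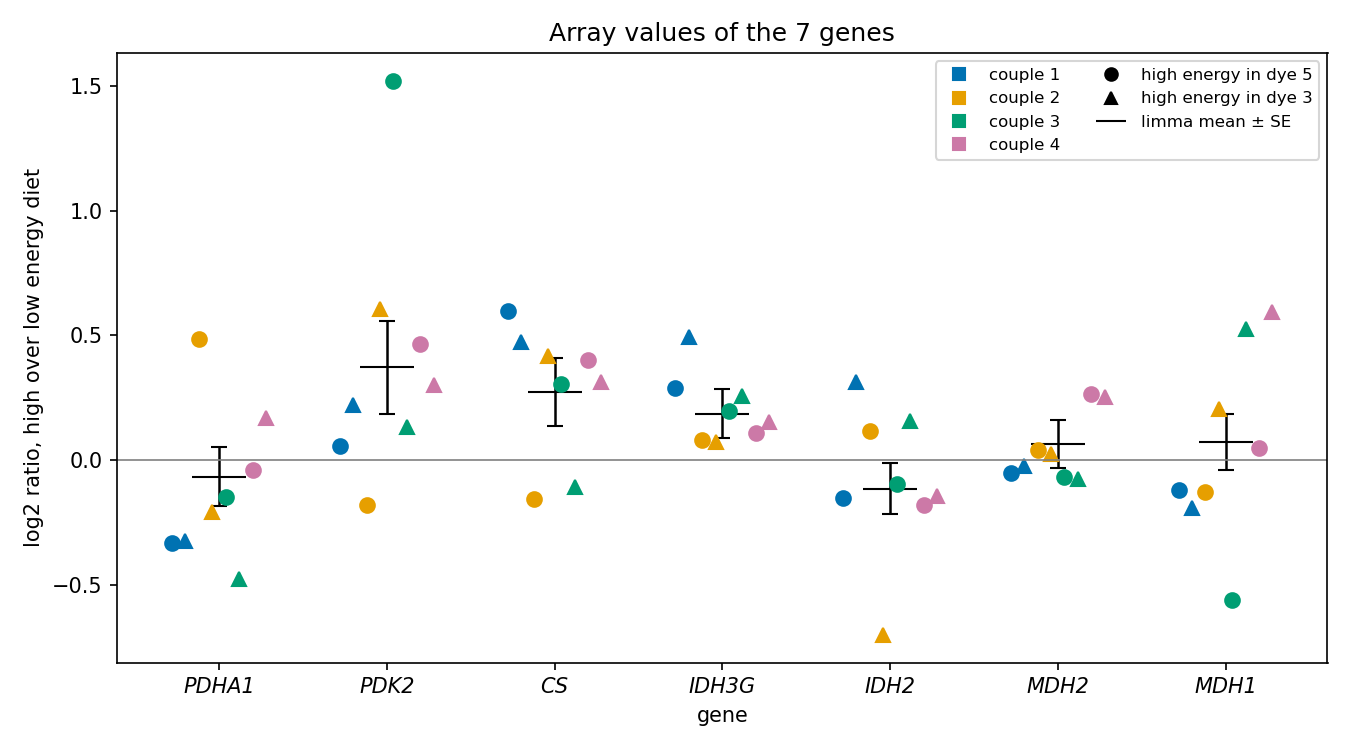
Log2 ratio (high over low energy, y axis) of the 7 genes (x axis), 1 point per array with the spots of a gene averaged; colours mark couples, circles and triangles the dye of the high energy sample, and black bars the limma mean ± SE over 4 couples. All 8 points of IDH3G lie above 0, and 1 point of PDK2 reaches 1.52.

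CS, citrate synthase, catalyses the first step of the cycle and had a mean of 0.27 ± 0.14 (SE, n = 4 couples; turned -0.019, adjusted p = 0.996 in limma). That is 1.21-fold, with a 95% interval from 0.957-fold to 1.53-fold. The log2 ratios in dye 5 and dye 3 were 0.60 and 0.47 in couple 1, -0.16 and 0.42 in couple 2, 0.31 and -0.11 in couple 3, and 0.40 and 0.31 in couple 4. Couples 1 and 4 were above 0 with both dyes, and couples 2 and 3 each had 1 array below 0. The plain means of the dye orientations were 0.29 with dye 5 and 0.28 with dye 3. Weighted as in the limma mean and the turned value, where couples 1 and 3 count less, they were 0.25 and 0.29. The spots agreed in sign of their means, at 0.19 ± 0.14 and 0.26 ± 0.16, the second with values in 3 complete couples.

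The ratio of CS kept its sign when any couple or any array was left out, and ranged from 0.19 to 0.36 over these settings. With all 8 arrays fitted and the couple as a random block, its unadjusted p was 0.015 (adjusted p = 0.580 in limma), and with couple means taken as independent it was 0.034 (adjusted p = 0.786 in limma). In the fit of 8 arrays IDH3G and PDK2 had unadjusted p of 0.011 and 0.035 (adjusted p = 0.541 and 0.687 in limma). The correlation estimated within couples was -0.036, so that fit counted swapped arrays of a couple almost as independent replicates. Neither of these fits took account of the high energy sample shared between couples. The main limma test, which did, gave CS, IDH3G and PDK2 unadjusted p of 0.093, 0.110 and 0.095.

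The isocitrate dehydrogenases differ in coenzyme and place: IDH3G is a regulatory subunit of the NAD-dependent enzyme of the cycle, and IDH2 is the mitochondrial enzyme that yields NADPH. IDH3G had log2 ratios in dye 5 and dye 3 of 0.29 and 0.50 in couple 1, 0.080 and 0.072 in couple 2, 0.20 and 0.26 in couple 3, and 0.11 and 0.15 in couple 4. It was the only one of the 7 genes above 0 on all 8 arrays, as were 0.797% of the 3640 features measured on every array. Its mean was 0.19 ± 0.098 (SE, n = 4 couples; turned -0.032, adjusted p = 0.996 in limma), or 1.14-fold with an interval from 0.96-fold to 1.35-fold. One of its spots was above 0 on 8 arrays and the other on 6, with spot means of 0.24 ± 0.10 and 0.13 ± 0.11. Couple 1 had the highest values and couple 2 the lowest.

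IDH2 had ratios on both sides of 0. In dye 5 and dye 3 they were -0.15 and 0.31 in couple 1, 0.12 and -0.70 in couple 2, -0.096 and 0.16 in couple 3, and -0.18 and -0.14 in couple 4. In 3 couples the swapped arrays differed in sign, and only couple 4 was below 0 with both dyes. The mean was -0.11 ± 0.10 (SE, n = 4 couples; turned 0.046, adjusted p = 0.996 in limma), and it was 0.0087 without the array of couple 2 with dye 3. The spot means were -0.23 ± 0.18 and 0.0015 ± 0.16, so the first spot alone lay clearly on the side of the mean. On the array of couple 3 with dye 3 the spots had -0.32 and 0.63.

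Malate dehydrogenase occurs as a mitochondrial enzyme of the cycle, MDH2, and a cytosolic one, MDH1, which work together in the malate-aspartate shuttle. MDH2 had log2 ratios in dye 5 and dye 3 of -0.049 and -0.024 in couple 1, 0.043 and 0.024 in couple 2, -0.067 and -0.076 in couple 3, and 0.26 and 0.25 in couple 4. Averaged over its spots, the swapped arrays of each couple gave nearly the same value, and couple 4 stood above the other couples. The mean was 0.066 ± 0.097 (SE, n = 4 couples; turned 0.0027, adjusted p = 0.996 in limma) and -0.017 without couple 4. Of its neighbouring spots, the first was below 0 on 8 of 8 arrays and the second above 0 on 7 of 8. In couple 4 the first spot had -0.083 and -0.31 and the second 0.61 and 0.82, opposite shifts that cancelled in the average.

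MDH1 had plain means of opposite sign in the dye orientations, -0.19 with dye 5 and 0.28 with dye 3. Weighted as in limma they were -0.16 and 0.31. With the high energy sample in dye 5 and dye 3 its ratios were -0.12 and -0.19 in couple 1, -0.13 and 0.21 in couple 2, -0.56 and 0.53 in couple 3, and 0.051 and 0.60 in couple 4. The dye 3 array was the higher one in 3 of 4 couples. The mean was 0.075 ± 0.11 (SE, n = 4 couples), and the turned value, -0.23 ± 0.16, was the farthest from 0 of the 7 genes (adjusted p = 0.998 in limma), though couple 1 ran the other way. Without couple 4 the mean was -0.032, and without the dye 3 array of couple 3 or of couple 4 it was -0.034 or -0.0068.

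Differences between related genes were compared within couples with a two-sided exact sign-flip permutation test. Its smallest p with 4 couples is 0.125, so no difference could pass 0.05. The differences are plain means that weigh the 4 couples alike, unlike the limma means. PDK2 thus entered with 0.39 and PDHA1 with -0.11. The test takes the couples as independent, although couples 1 and 3 share sample 40; with these averaged to 1 replicate, IDH3G minus IDH2 and PDK2 minus PDHA1 were 0.31 and 0.40, each with an exact p of 0.25. IDH3G minus IDH2 was 0.29 ± 0.070 (SD, n = 4 couples) and was 0.31, 0.37, 0.20 and 0.29 in couples 1 to 4 (exact p = 0.125, 0.188 after adjustment over the 3 differences). It was above 0 on 7 of 8 arrays, and -0.046 with the dye 3 arrays turned. PDK2 minus PDHA1 was 0.50 ± 0.46 (SD, n = 4 couples), with 0.46, 0.074, 1.14 and 0.32 in the couples (exact p = 0.125, 0.188 adjusted), and -0.026 when turned. MDH2 minus MDH1 was -0.0020 ± 0.084 (SD, n = 4 couples), from -0.065 to 0.12 (exact p = 0.875). It was 0.24 in the arrays with dye 5, -0.24 in those with dye 3, and 0.24 when turned.

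Over the 7 genes, 5 had a mean above 0, or 71.4%, beside 46.4% of all 5025 features, and the median was 0.075 beside -0.012. In couples 1 to 4 the number of these genes above 0 was 4, 6, 4 and 6, beside 48.4%, 49.9%, 49.4% and 45.4% of all features. Their median was 0.26 in couple 4 and 0.082, 0.076 and 0.030 in couples 1, 2 and 3. Without couple 4 the number above 0 was 3 and the median was -0.017. With the dye 3 arrays turned, 4 of the 7 genes and 47.4% of all features were above 0, and the median of the 7 was 0.0027.

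**Figure D3:**
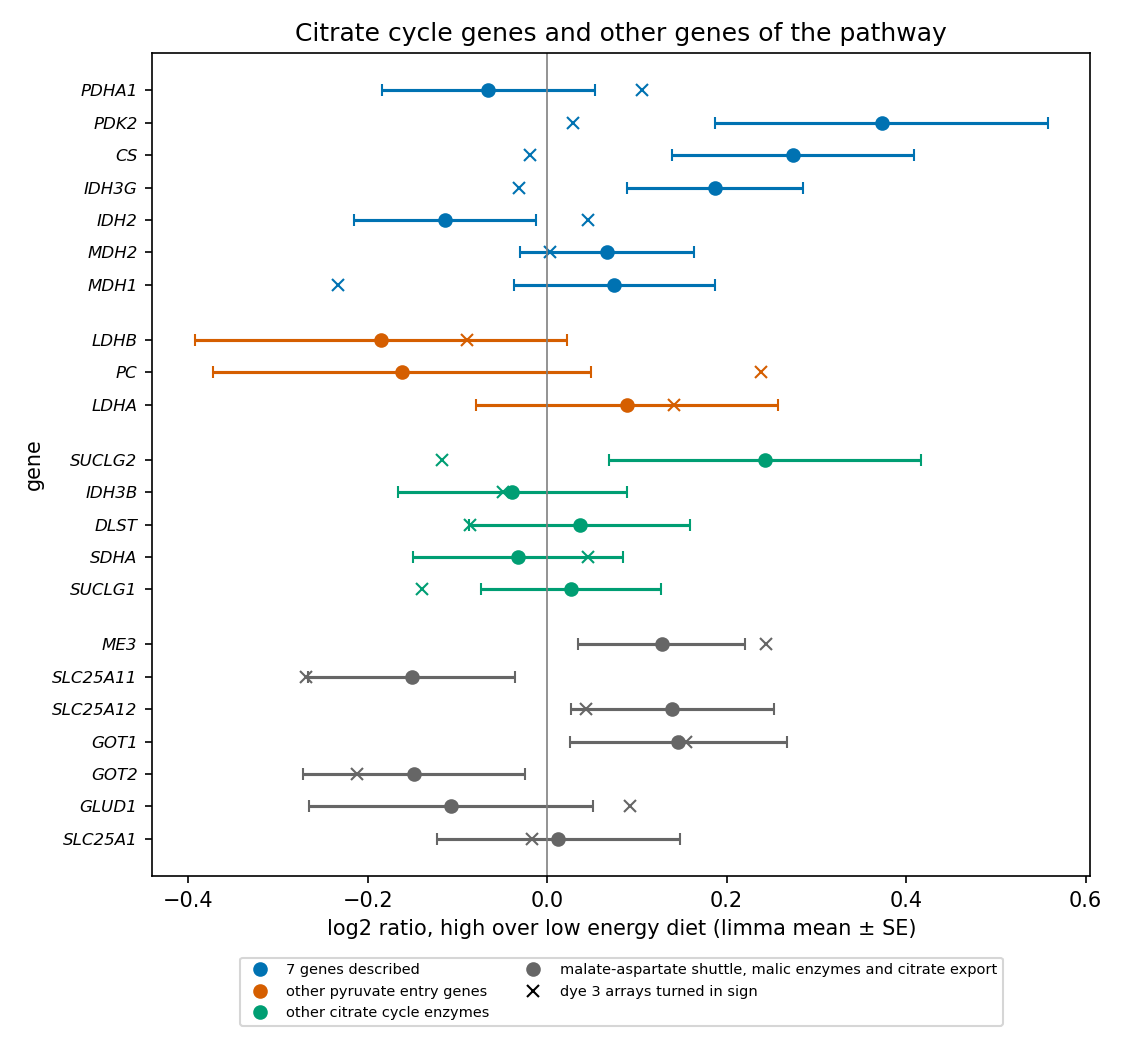
Mean log2 ratio (high over low energy, x axis; limma mean ± SE over 3 or 4 couples) of the 7 genes and of 15 other genes of the pathway (y axis); crosses are the values with the dye 3 arrays turned in sign. PDK2 has the highest mean, 0.37, and LDHB the lowest, -0.19.

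Of the other genes of pyruvate entry, 16 were listed, 6 had a spot and 3 were measured in enough couples; 0 passed, with 1 above 0 and 2 below (turned, 2 above 0). LDHB, a lactate dehydrogenase subunit typical of heart and slow muscle, had -0.19 ± 0.21 (turned -0.089). LDHA, the subunit typical of fast muscle, had 0.089 ± 0.17 (turned 0.14). PC, the carboxylase that makes oxaloacetate from pyruvate, had -0.16 ± 0.21 (turned 0.24). Each of these had couples on both sides of 0. PDHX, PDP1 and MPC2 were complete in 2 couples and were not tested.

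Of 15 other citrate cycle enzymes, 8 had a spot and 5 were tested, with 3 above 0, 2 below and 0 past the threshold; turned, 1 of the 5 was above 0. SUCLG2, a subunit of the succinyl-CoA ligase that yields GTP, had 0.24 ± 0.17 in 3 couples (turned -0.12). IDH3B, a partner of IDH3G in the NAD-dependent enzyme, had -0.039 ± 0.13 (turned -0.049), with -0.0049, 0.020, -0.37 and 0.099 in couples 1 to 4. IDH3B was thus below 0 in 2 couples in which IDH3G was above it. DLST, the succinyl transferase of the 2-oxoglutarate dehydrogenase complex, had 0.036 ± 0.12 (turned -0.086). SDHA and SUCLG1 had -0.033 and 0.026 (turned 0.046 and -0.14).

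The malate-aspartate shuttle, malic enzymes and citrate export gave 7 tested genes of 14 listed, 4 above 0, 3 below and 0 past the threshold, with a median of 0.012 (turned, 4 above 0). ME3, the mitochondrial NADP-dependent malic enzyme, had 0.13 ± 0.093 in 3 couples (turned 0.24). SLC25A11, the carrier that exchanges malate for 2-oxoglutarate, had -0.15 ± 0.12 in 3 couples (turned -0.27), and SLC25A12, a carrier of aspartate and glutamate, had 0.14 ± 0.11 (turned 0.043). The 2 carriers of the shuttle thus lay on opposite sides of 0.

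By the root mean square difference over the 8 arrays, the genes with values closest to those of CS among 1927 genes were ENO3 (0.222), the muscle enolase of glycolysis, with a ratio of 0.28 ± 0.14 (turned -0.013), WIPI2 (0.226), ADH1B (0.232), ARAF (0.244) and CITED4 (0.245). IDH3G came eighth by this measure, with 0.256, and MDH2 had 0.358. The other 4 genes, with 0.491 to 0.598, were farther from CS than the median gene at 0.472. A gene with steady values near the mean of CS also comes out close by this measure. A high place therefore does not show that a gene followed CS from array to array. Where CS had -0.16 (couple 2, dye 5) and -0.11 (couple 3, dye 3), IDH3G had 0.080 and 0.26. The ranking is a description of 8 arrays from 4 couples, without a test.

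**Figure D4:**
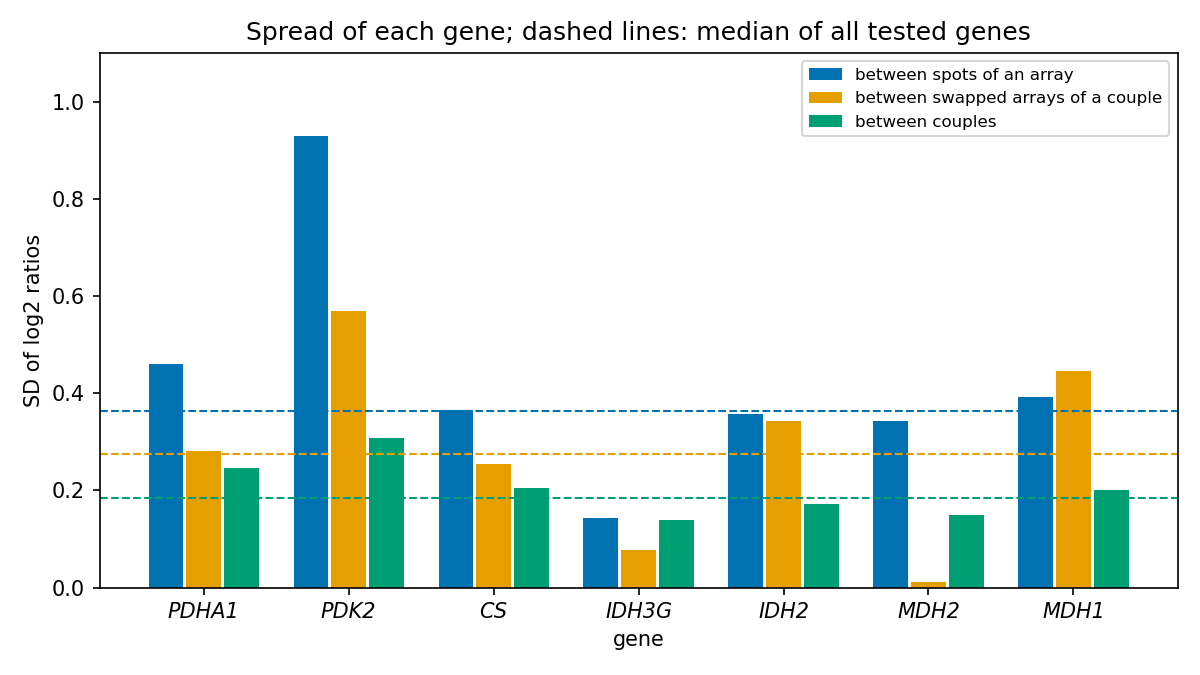
SD of log2 ratios (y axis) of each gene (x axis) between spots of an array, between the swapped arrays of a couple and between couples; dashed lines give the medians of 2556 tested genes. PDK2 has the widest spread between spots, 0.93, and IDH3G the narrowest, 0.14.

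The genes differed in how well they were measured. IDH3G was among the steadiest genes: its SD was 0.14 between spots and 0.077 between swapped arrays, and 8.53% and 3.91% of genes had lower ones. MDH2, averaged over its spots, had the lowest SD between swapped arrays of all tested genes, 0.012, beside 0.34 between its spots. In couple 4 that low value came from averaging. From dye 5 to dye 3 the first spot fell from -0.083 to -0.31 and the second rose from 0.61 to 0.82, which cancelled. PDK2 was at the other end, with 0.93 between spots and 0.57 between swapped arrays. Over all tested genes the median SD was 0.36 between spots of an array, 0.28 between swapped arrays and 0.18 between couples. For CS these were 0.37, 0.26 and 0.21, close to the typical gene. For every one of the 7 genes the SD between couples was smaller than the SD between spots. Couple values were already averaged over spots and swapped arrays, which by itself lowers their SD. The order of these SDs therefore does not show that couples agreed better than spots.

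Markers of muscle fibres and of other cells in the tissue were read beside these ratios, which carry no level and cannot show that a cell type is present. Of 12 measured fibre markers 4 were above 0, with a median of -0.10 and a range from -0.32 to 0.28, and 0 passed; turned, 8 of the 12 were above 0. MB, myoglobin, and TNNT1, slow troponin T, which mark slow oxidative fibres, had -0.32 ± 0.10 (turned 0.22) and -0.21 ± 0.080 (turned -0.047). They were the 2 fibre markers with an unadjusted p under 0.05 in limma (adjusted p = 0.996). Both were below 0 in every couple, in which CS and IDH3G were above it. Turned, TNNT1 lay below 0 together with CS (-0.019) and IDH3G (-0.032), and MB above it. Values below 0 were not limited to MB and TNNT1: NEB had -0.21, MYH1 -0.17, MYH7 -0.14, TTN -0.12, MYH2 -0.087 and ACTA1 -0.038. The 4 fibre markers above 0 were ENO3, TNNT3, CKM and DES. Adipocyte markers had 1 of 2 above 0, red blood cell markers 2 of 4, matrix markers 2 of 3, vessel markers 3 of 3, with a range from 0.11 to 0.25, and immune markers 3 of 4. Turned, these counts were 1, 4, 1, 1 and 1. Of all features 46.4% were above 0, and 47.4% when turned, and lists this short cannot be told from that share. The part of cell composition in the ratios of the 7 genes was not tested; in bulk RNA, fewer fibres of a type and less RNA per fibre cannot be told apart.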

How the data were processed

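The authors deposited log2 ratios of the channels of each array, with array medians between -0.0071 and 0.012; per the series' design text, cDNA was labelled with Cy3 and Cy5 and read with a ScanArray LITE scanner, while no source used here names the background correction, filters or normalization. The base of the logarithm was checked on each array: as powers of 2, 5.95% to 19.2% of values gave a fraction whose denominator was 60 or less, and as powers of 10 or e at most 2.25%. The lesser recovered number was under 5000 for 85.9% to 97.1% of values and for 0.52% of random ones.

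Arrays were centred on their medians, spots of 1 symbol averaged, and the swapped arrays of a couple averaged to 1 replicate. Features complete in at least 3 of 4 couples were tested in limma 3.58.1 (R 4.3.3) by lmFit and eBayes, two-sided, with couples of the same high energy sample blocked at a set correlation of 0.5, so couples 1 and 3 weigh less in the mean. The script was tested on simulated data. The 7 genes and the lists were chosen with earlier results of these data known. Named were these genes, up to 3 of each pathway list by p, and the 5 closest to CS. SDHA, SUCLG1, the fibre markers and untested genes were named after their values were seen. A difference with PDHB could not be computed, so PDK2 was set against PDHA1 alone.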

Additional observations from a re-analysis of the deposited data

Results flagged for a closer look

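PDK2 had 1 array far from the others: 1.52 in couple 3 with the high energy sample in dye 5, against 0.61 on the next highest array, a gap of 0.538 of the whole range of the 8 arrays. It was the 1 case among 17 sets of values checked, of which chance gives about 5%. The swapped array of the same couple had 0.13.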

How the results depend on the processing

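Under every alternative run, 0 of the 7 genes and 0 features passed. With the dye 3 arrays turned, these means changed sign: CS -0.019, IDH2 0.046, IDH3G -0.032, MDH1 -0.23, PDHA1 0.11, and the differences MDH2 minus MDH1 (0.24), IDH3G minus IDH2 (-0.046) and PDK2 minus PDHA1 (-0.026). With dye 5 only, MDH1 had -0.16, PDHA1 0.039 and MDH2 minus MDH1 0.24; with dye 3 only the median of the 7 genes was 0.22. With single spots, the other sign was given by IDH2 (0.0015), MDH2 (-0.11), PDHA1 (0.15) and PDK2 (-0.020). Without recovered signals under 100, PDHA1 had 0.023 and MDH2 minus MDH1 0.055. Leaving out 1 couple or array gave IDH2 -0.24 to 0.0087, MDH1 -0.034 to 0.18, MDH2 -0.017 to 0.085, PDHA1 -0.17 to 0.038, a median of -0.017 (without couple 4) to 0.18 (without the dye 5 array of couple 3), and 3 (without couple 4) to 7 genes above 0. MDH2 minus MDH1, for which couples alone were left out, had -0.042 to 0.019 and was above 0 without couple 3 or couple 4. CS, IDH3G and PDK2 kept their sign in these. Centring, scaling, the filters on missing values, the median over spots and robust eBayes changed no sign of the 7 genes. Features at an unadjusted p under 0.05 numbered 353 with 8 arrays and the couple as a block, 310 with independent couples, 108 with dye 5 only and 108 (without couple 2) to 305 (without couple 3) when 1 couple or array was left out, with 115 without the dye 3 array of couple 3. The causes were not tested. With 8 arrays the correlation estimated within couples was -0.036, so swapped arrays counted almost as independent replicates in that count. The median SE of 0.13 limits what could be seen.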

Other observations

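The spots of MDH2 were compared with those of other genes after their values were seen. Of 1258 genes with 2 spots measured on all 8 arrays, MDH2 was the only one with one spot on 1 side of 0 on all 8 arrays and the other on the opposite side on at least 7. These limits match the counts of MDH2 itself, so it had to meet them. Some of its values were near 0, among them -0.021 for the first spot and 0.0027, 0.014 and 0.018 for the second. Over the 8 arrays the spots of MDH2 had median recovered signals of 2123 and 3136. The larger gaps between the 2 spots were in couple 4, where the second spot exceeded the first by up to 1.13 log2. There the recovered signals, which are lower bounds, were 412 and 1141 for the first spot and 484 and 585 for the second. The medians of those arrays were 607 and 603. Over all 8 arrays the median gap was 0.15, against 0.22 over all such genes.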
